A study of Rattus norvegicus with 241 samples.

Results

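The 7 genes described here are the immune checkpoint genes CD274, PDCD1, CTLA4, LAG3, TIGIT and HAVCR2 and the regulatory T cell gene FOXP3. They were chosen by name, with symbols matched ignoring case, and by no rule on their values, although earlier results of these data were known. They are 7 of the 18237 genes listed in the whole-gland single-cell tables. In bulk CD45 cells, which are leukocytes sorted on the surface protein CD45, 5 of the 7 had values in every library. PDCD1 had values in the adult and E2 experiments only, and TIGIT was read in the single cells only.

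The study asked whether a short course of an inhibitor of the TGFβ type I receptor (TGFBRi; LY2157299, galunisertib) changes the mammary gland and later tumor formation in female rats. TGFBRi was given at 75 mg/kg in 2 doses per day, over 10 days or, in the E2 experiment, 21 days, and controls received vehicle. Of 241 samples, 74 were bulk CD45 libraries from 71 rats or tumors, and 9 were single-cell libraries of whole glands. All rats were of the ACI or the Sprague Dawley (SD) strain.

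Young ACI rats were dosed from 35 days of age and sampled on day 0, 7 or 14 after the last dose, with 3 rats per arm and day. Young SD rats were dosed from 24 days of age and sampled on day 0, with 4 rats per arm. In the labels of the basal and luminal samples of this experiment, some TGFBRi rats are called weak and others strong responders. The 4 TGFBRi rats were analyzed together. Adult ACI rats of 18 to 24 weeks were virgin (4 vehicle, 3 TGFBRi) or parous (2 vehicle, 4 TGFBRi) and were sampled on day 0. In the NMU experiment, SD rats were dosed from 21 days of age, received the carcinogen N-nitroso-N-methylurea at 50 mg/kg, and gave glands after 87 days from 3 tumor-bearing vehicle rats, 3 tumor-free TGFBRi rats and 3 tumor-bearing TGFBRi rats. The 6 tumor-bearing rats each also gave a tumor. In the E2 experiment, ACI rats were dosed from 38 days of age and carried an implant with 37 mg estradiol (E2) or an empty one. Per the study, they were sampled at the end of its tumor experiment. The groups were no E2 with vehicle (4 rats), no E2 with TGFBRi (3), E2 with vehicle and tumors (4), E2 with TGFBRi and no tumor (4, of which 1 is the mean of 4 parts of its tissue) and E2 with TGFBRi and tumors (2). Whole-gland single cells came from SD rats dosed from 24 days of age and sampled on day 0, 3 with vehicle and 6 with TGFBRi. Apart from the parous adults, all rats were virgin.

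Checkpoint receptors are inhibitory receptors that restrain activated lymphocytes when they meet their ligands. CD274 (PD-L1) is the ligand of PDCD1 (PD-1) and is made by many cell types. CTLA4 competes with CD28 for CD80 and CD86, LAG3 binds MHC class II, TIGIT binds PVR, and HAVCR2 (TIM-3), first described on T cells, is also carried by myeloid cells. FOXP3 is the transcription factor that defines regulatory T cells, which carry much CTLA4 and TIGIT.

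The promoters of the 4 members on which the bulk results turn and for which RefSeq gave an entry are printed so that the start regions of the ligand, of a T cell receptor, of a myeloid receptor and of the transcription factor can be compared. They run from 250 bases before to 50 bases after the gene start in build GRCr8. A promoter entry was matched for 6 of the 7 members, and LAG3 is named only. Capitals mark matches on either strand to TATAAA (the classic core promoter box), GGAAA (NFAT core), TTCNNNGAA (STAT), TGTGGT (RUNX), CAGACA (SMAD) and TGANTCA (AP-1). CD274 lies at chr1:236529982-236530281 on the plus strand, CTLA4 at chr9:69813171-69813470 on the plus strand, HAVCR2 at chr10:31383675-31383974 on the plus strand and FOXP3 at chrX:17595651-17595950 on the minus strand.
CD274: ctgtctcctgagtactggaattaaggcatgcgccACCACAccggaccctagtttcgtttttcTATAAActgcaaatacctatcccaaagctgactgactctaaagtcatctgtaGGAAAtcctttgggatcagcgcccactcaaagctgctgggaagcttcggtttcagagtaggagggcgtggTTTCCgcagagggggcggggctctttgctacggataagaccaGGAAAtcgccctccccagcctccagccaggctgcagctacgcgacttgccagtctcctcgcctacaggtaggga
CTLA4: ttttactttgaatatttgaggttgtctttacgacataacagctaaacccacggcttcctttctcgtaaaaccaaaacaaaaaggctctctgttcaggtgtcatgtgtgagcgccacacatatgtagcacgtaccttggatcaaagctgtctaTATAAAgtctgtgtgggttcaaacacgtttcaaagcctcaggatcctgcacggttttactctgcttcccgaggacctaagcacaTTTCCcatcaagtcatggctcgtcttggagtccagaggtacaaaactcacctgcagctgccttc
HAVCR2: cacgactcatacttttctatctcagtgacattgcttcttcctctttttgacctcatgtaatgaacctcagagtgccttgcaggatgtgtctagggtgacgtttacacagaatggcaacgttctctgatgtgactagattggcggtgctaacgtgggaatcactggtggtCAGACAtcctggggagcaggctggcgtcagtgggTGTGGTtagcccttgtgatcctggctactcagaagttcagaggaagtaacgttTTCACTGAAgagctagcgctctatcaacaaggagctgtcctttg
FOXP3: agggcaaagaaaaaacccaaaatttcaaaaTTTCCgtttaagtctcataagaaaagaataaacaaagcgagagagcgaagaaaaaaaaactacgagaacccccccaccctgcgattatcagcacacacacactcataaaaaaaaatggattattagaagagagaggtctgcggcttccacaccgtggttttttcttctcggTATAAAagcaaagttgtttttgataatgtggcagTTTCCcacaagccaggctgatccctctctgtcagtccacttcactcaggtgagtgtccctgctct

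CD274, CTLA4 and FOXP3 each held 1 TATAAA match and 3, 1 and 2 NFAT matches. HAVCR2 held neither, and had 1 STAT, 1 RUNX and 1 SMAD match. CD274 also held 1 RUNX match. Over all 33469 promoters in the RefSeq table, 14.2% held TATAAA, 62.7% GGAAA, 8.87% TTCNNNGAA, 17.3% TGTGGT, 21.1% CAGACA and 7.33% TGANTCA. These matches are letters in a window and were not set against the expression values.

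The bulk CD45 libraries held 7006141 to 40042138 recovered reads, with a median of 21924922, and listed 12693 to 14764 genes. Values are the authors' normalized counts, which compare a gene between libraries but not genes of different length with each other. Fold changes are log2 of the normalized count plus 1 from limma, with p-values adjusted by Benjamini-Hochberg over all genes tested, and a gene is said to have risen or fallen at an adjusted p of 0.05 or less. Apart from the responder labels of young SD rats, nothing in the labels ties replicates to more than separate rats or tumors, and the p-values measure the spread between these. The gene spans of CD274, HAVCR2 and FOXP3 overlap another gene in GRCr8. Reads were counted without strand on rn6, where these overlaps were not checked, so that reads of the overlapping pairs may not be told apart.

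Set against the gland of the same rat, CD45 libraries of NMU tumors held more LAG3, CTLA4 and FOXP3, whereas CD274 and HAVCR2 did not differ past the threshold. In the vehicle rats, LAG3 went from 289 in the gland to 1643 in the tumor, from 376 to 5415 and from 264 to 8451 normalized counts, on a scale set over the 12 libraries together. In the TGFBRi rats it went from 87.0 to 1937, from 375 to 6146 and from 149 to 1859. Every tumor lay above every gland, as for 5.63% of genes that were higher without overlap and for 3 of 5 members (LAG3, CTLA4 and FOXP3). Over both arms LAG3 rose by 3.91 on the log2 scale (SE 0.34, limma adjusted p = 2.5e-05). Of the 12190 genes tested, 3712 passed (1425 higher, 2287 lower), that is 30.5%, against 3 of 5 members. The median change was -0.25 over all genes.

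CTLA4 went from 187 to 252, from 94.1 to 1180 and from 88.6 to 738 in the vehicle rats. In the TGFBRi rats it went from 30.0 to 435, from 142 to 1298 and from 141 to 1363. It was higher in the tumor in all 6 rats, least so in vehicle rat 1. CTLA4 rose by 2.90 (SE 0.45, limma adjusted p = 0.000858).

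FOXP3 went from 126 to 240, from 179 to 1155 and from 62.8 to 1666 in the vehicle rats. The TGFBRi rats went from 42.4 to 432, from 60.6 to 335 and from 97.5 to 207. All 6 tumors lay above all 6 glands, and the 2 highest tumors were from vehicle rats. FOXP3 rose by 2.53 (SE 0.54, limma adjusted p = 0.0044).

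CD274 gave no common direction. It went from 309 to 164, from 293 to 201 and from 552 to 77.2 in the vehicle rats, and from 167 to 116, from 404 to 626 and from 647 to 682 in the TGFBRi rats. The difference over both arms was -0.68 (SE 0.41, limma adjusted p = 0.236). HAVCR2 went from 135 to 470, from 221 to 408 and from 811 to 493 in the vehicle rats, and from 92.9 to 565, from 658 to 88 and from 1044 to 119 in the TGFBRi rats. Gland and tumor values of HAVCR2 overlapped, with a difference of -0.24 (SE 0.72, limma adjusted p = 0.831). In the TGFBRi rats alone HAVCR2 differed by -1.14 (limma adjusted p = 0.468), and without the tumor and gland of TGFBRi rat 1 it fell, at -3.01 (adjusted p = 0.0139).

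**Figure D1:**
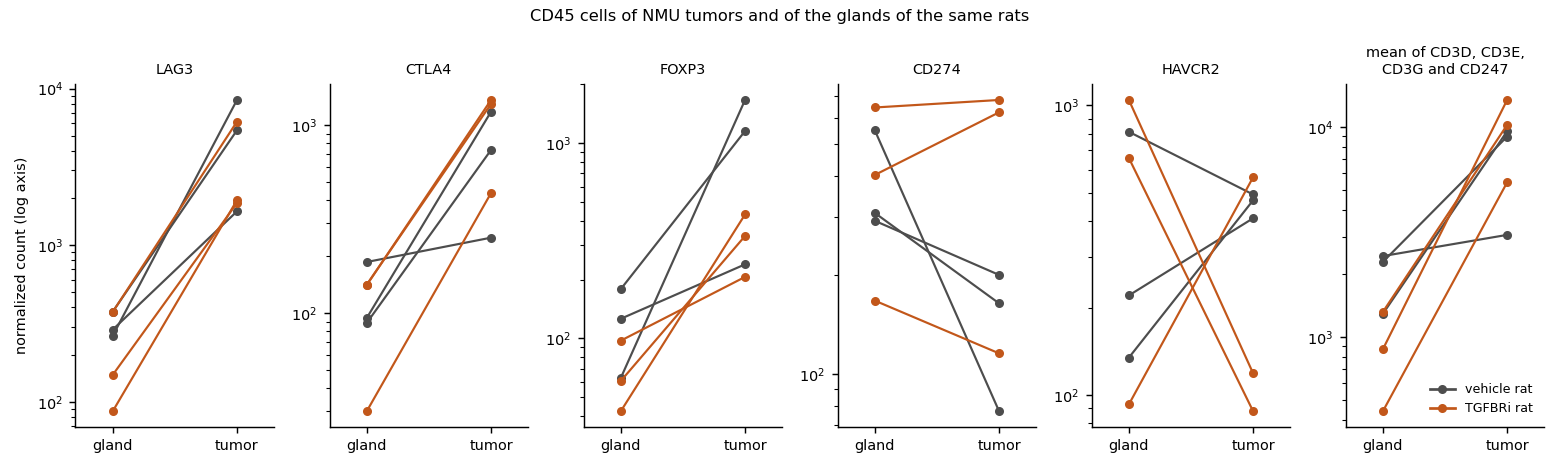
Normalized counts (log axis) of 5 members and of the mean of 4 CD3 genes in CD45 cells of the gland and of the tumor of 6 NMU rats, 1 line per rat, grey for vehicle and orange for TGFBRi. All LAG3, CTLA4 and FOXP3 lines rise from gland to tumor, as do those of the CD3 mean, whereas the lines of CD274 and HAVCR2 run both ways.

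By arm, LAG3 rose in vehicle rats by 3.78 (limma adjusted p = 0.00118) and in TGFBRi rats by 4.04 (adjusted p = 0.000399). CTLA4 rose by 2.37 (adjusted p = 0.0437, by edgeR 0.0858) and by 3.42 (adjusted p = 0.00409). Its call in vehicle rats was also lost without the replicate block (limma adjusted p = 0.0584) and with only the groups compared (0.0614). FOXP3 lay near the threshold in both arms, at 2.77 in vehicle rats (adjusted p = 0.0445, by edgeR 0.0960) and 2.28 in TGFBRi rats (adjusted p = 0.0506). In TGFBRi rats it passed by DESeq2 (adjusted p = 0.00866), without the replicate block (0.0336), with a pseudocount of 5 (0.0451) and with a mean of at least 10 (0.0497), and did not by edgeR (0.0771). The background of called genes was 8.33% in vehicle rats and 21.7% in TGFBRi rats. The difference between the arms was past the threshold for 0 of 5 members and for 0% of all genes by limma. At an unadjusted p under 0.05 there were 898 such genes, and edgeR called 0 and DESeq2 151. The CTLA4 and FOXP3 calls in vehicle rats rested on single rats, each left out with both its tumor and its gland. Without vehicle rat 2 their limma adjusted p were 0.277 and 0.187, and without vehicle rat 3 they were 0.170 and 0.241.

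The T cell receptor complex moved with these members. The mean count of CD3D, CD3E, CD3G and CD247 was 1.26, 3.95 and 7.41 times as high in the tumor as in the gland of the vehicle rats, and 12.3, 7.78 and 15.4 times in the TGFBRi rats. In vehicle rat 1, CD3E (2719 in the gland, 2711 in the tumor) and CD247 (1062 and 736) were not higher in the tumor. The covariate was the mean log2 value of the 4 genes, called the CD3 mean from here on. With it, the tumor difference was 1.92 for LAG3 (limma adjusted p = 0.311), 0.43 for CTLA4 (adjusted p = 0.907) and -0.34 for FOXP3 (adjusted p = 0.941), and 0 genes of any kind passed. In bulk cells, fewer cells of a type and less RNA per cell cannot be told apart, here and below. As a percent of the geometric mean of these 4 genes in the same library, LAG3 was 13 to 22 in vehicle glands and 67.6 to 102.9 in vehicle tumors, without overlap, and 18.1 to 33.4 in TGFBRi glands and 19.1 to 79.2 in TGFBRi tumors, with overlap. CTLA4 was 4.44 to 8.39 percent in vehicle glands and 9.00 to 15.8 in vehicle tumors, and FOXP3 5.29 to 8.41 and 9.90 to 20.3. In TGFBRi rats both overlapped, with CTLA4 at 7.71 to 17.2 percent in glands and 10.4 to 16.7 in tumors and FOXP3 at 5.46 to 11.9 and 2.14 to 10.4.

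Gland cells had been gated on CD24, CD29, CD31 and CD45 and tumor cells on CD45 and EPCAM, so that tissue and gate cannot be told apart. Markers of other cell types moved between them. The mean log2 level of the fibroblast markers was 13.1 to 14.3 in vehicle glands and 8.63 to 9.80 in vehicle tumors, and 12.5 to 12.8 and 7.41 to 11.7 in the TGFBRi rats. Of the fibroblast markers 4 of 5 fell, of the luminal markers 4 of 6, of the basal markers 3 of 4 and of the macrophage markers 5 of 9, CD163 by -4.06. PTPRC, the gene of CD45, ran from 48.3 to 254.5 reads per 1000000 (median 113.9) in the 9 gland libraries, tumor-free rats included. In the 6 tumor libraries it ran from 165.6 to 1225 (median 604.5), so that the ranges overlapped. Its median was 407.8 to 1094 in the CD45 libraries of the other experiments. The part of these cells and of the PTPRC level in the members' differences was not tested.

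Partner genes followed several directions. Of the 12 genes of the T cell receptor complex list, 10 rose and 0 fell (median 1.90), with CD3G at 3.22, CD5 at 3.01, CD2 at 2.63 and CD3D at 2.59. Of 16 regulatory T cell genes, 10 rose and 3 fell (median 1.70), among them TNFRSF4 (OX40, a costimulatory receptor) at 5.26, IKZF2 (Helios) at 4.99, ICOS at 3.05 and NT5E (CD73) at -3.62. Of 10 ligands and partners of the members, 5 rose and 3 fell (median 1.24). CD226, the activating counterpart of TIGIT, rose by 4.80, whereas NECTIN2 fell by 5.66, CEACAM1 fell by 4.32 and PVR fell by 2.89. Of 14 other co-receptors, 6 rose and 2 fell (median 1.21), with BTLA and TNFRSF9 both at 3.35, VTCN1 at -4.89 and CD276 at -2.88. Of the natural killer markers 3 of 6 rose, with GZMM at 2.38, and of the dendritic markers 2 of 8, with XCR1 at 4.96. Fibroblast, luminal and basal markers fell in the same comparison, and their part in the differences of these partner genes was not tested.

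Within the tumors, TGFBRi did not move any member past the threshold. FOXP3 was 222, 1064 and 1456 normalized counts in vehicle tumors and 389, 306 and 180 in TGFBRi tumors, with overlap (-1.33, SE 0.66, limma adjusted p = 0.760). HAVCR2 was 435, 376 and 431 against 509, 80.4 and 103.8 (-1.34, adjusted p = 0.764). CD274 was 152, 185 and 67.5 against 104.3, 572 and 595 (1.40, adjusted p = 0.768). TGFBRi tumor 1 had the highest HAVCR2 of all 6 tumors and a CD274 value within the vehicle range, so that neither gene separated the arms. Of LAG3 and CTLA4, the differences were -0.61 and 0.59. Over all 12641 genes 0% were called by limma, 841 had an unadjusted p under 0.05, edgeR called 0 and DESeq2 68.

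In the glands of the same experiment no member passed in any comparison. LAG3 was 340, 428 and 304 in vehicle rats, 192, 1015 and 508 in tumor-free TGFBRi rats and 95.6, 441 and 180 in tumor-bearing TGFBRi rats. FOXP3 was 149, 204 and 72.2, then 73.5, 213 and 122, then 46.6, 71.3 and 118. CTLA4 was 220, 107.1 and 101.8, then 55.7, 255 and 297, then 32.9, 167 and 170. All 3 groups overlapped for these genes. CD274 lay between 184 and 783 and HAVCR2 between 102.1 and 1263. By limma 0% of genes were called for tumor-free TGFBRi against vehicle, 0.015% for tumor-bearing TGFBRi against vehicle and 0% for tumor-bearing against tumor-free TGFBRi. Genes at an unadjusted p under 0.05 numbered 404, 1011 and 952, there were 0 calls by edgeR in all 3, and 1, 193 and 119 by DESeq2. The first 2 comparisons share the vehicle rats.

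Under E2, HAVCR2 rose in the glands of TGFBRi rats that stayed tumor-free, and LAG3 and FOXP3 lay higher without overlap at adjusted p just above the threshold. HAVCR2 was 427, 525 and 234 normalized counts in TGFBRi rats without E2 and 1282, 1049, 2431 and 931 in tumor-free TGFBRi rats with E2. The first of these is the mean of 4 parts at 1803, 1852, 1030 and 444.3, the last of which lies within the range without E2. All 4 E2 values were above all 3 values without E2, with a difference of 1.82 (SE 0.50, limma adjusted p = 0.0434). Of 13483 genes 5.58% were called, against 1 of 6 members, and 12.5% lay higher without overlap, against 3 of 6 members. The HAVCR2 call was lost without any one of the 3 rats lacking E2 (adjusted p = 0.108, 0.0798 and 0.177), without E2 rat 1, 3 or 4 (0.0729, 0.138 and 0.0610) and by edgeR (0.0536).

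LAG3 was 618, 783 and 967 without E2 and 1714, 1057, 2016 and 1960 with E2, a difference of 1.07 (SE 0.31, limma adjusted p = 0.0520). FOXP3 was 338, 346 and 325 without E2 and 534, 635, 495 and 819 with E2, a difference of 0.85 (SE 0.25, limma adjusted p = 0.0552). The values of FOXP3 without E2 spanned a narrow range. By DESeq2 both passed, LAG3 at an adjusted p of 0.0119 and FOXP3 at 0.0117, where DESeq2 called 1539 of all genes against 752 by limma. CTLA4 was 1556, 809 and 1376 against 1280, 1182, 1895 and 1450, and CD274 1508, 1465 and 2120 against 1494, 1902, 2985 and 1486. Both overlapped, with differences of 0.25 (adjusted p = 0.611) and 0.17 (adjusted p = 0.760). PDCD1 was read 5, 2 and 0 times without E2 and 12, 3, 7 and 4 times with E2, the 12 being the sum over the 4 parts of 1 rat, near the limit of detection (0.65, adjusted p = 0.631).

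Natural killer genes rose together in the same comparison, 6 of 7 (median 2.17), with KLRB1A at 3.07, GZMM at 2.80, NCR1 at 2.47 and KLRD1 at 2.17. Of 17 regulatory T cell genes 9 rose and 0 fell (median 1.15), ITGAE (CD103) by 2.84, IL2RB by 2.13, NT5E by 1.88 and TNFRSF4 by 1.34. Of the T cell receptor complex 2 of 12 rose, ZAP70 by 1.21 and LCK by 0.84 (median 0.70). Of 14 other co-receptors 5 rose and 1 fell (median 1.00), TNFRSF9 by 2.56, CD244 by 2.11, KLRG1 by 2.10 and BTLA at -2.26. Of 12 ligands and partners 3 rose (median 0.71), CD96 by 3.03, PVR by 1.41 and CD80 by 1.31, and of 12 interferon γ genes IFNG rose by 3.24 and JAK2 by 0.78 (median 0.73). The median over all genes was -0.03. The mean log2 level of the natural killer markers was 7.65 to 8.09 without E2 and 9.03 to 10.6 with E2, that of the neutrophil markers 4.54 to 5.35 and 6.73 to 7.99, and that of the macrophage markers 8.50 to 8.85 and 8.76 to 10.8. Their part in the members' values was not tested. With the CD3 mean as a covariate, the HAVCR2 difference was 1.83 (limma adjusted p = 0.111).

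In vehicle rats, in which all E2 rats bore tumors so that E2 and tumors cannot be told apart, no member passed. FOXP3 was 577, 524, 509 and 369 without E2 and 593, 1019, 797 and 946 with E2. The groups did not overlap (0.75, SE 0.23, limma adjusted p = 0.195). LAG3 was 506, 649, 645 and 1249 against 1083, 1138, 1522 and 771 (0.61, adjusted p = 0.410). CD274 was 2346, 3095, 1900 and 1703 against 1861, 1658, 1050 and 1621 (-0.54, adjusted p = 0.393). HAVCR2 was 371, 705, 466 and 865 against 882, 1499, 251 and 421 (0.10), and CTLA4 897, 1286, 1016 and 1446 against 1421, 1277, 1376 and 2285 (0.44). Apart from FOXP3 these groups overlapped. Limma called 0.282% of all genes and 0 of 6 members, of which 3 had an unadjusted p under 0.05. Over all genes 1626 did, edgeR called 0 genes and DESeq2 251, and 2.81% of genes lay higher without overlap. The TGFBRi rats with E2 above were those without tumors, and the difference between the E2 effects of the arms was not tested.

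Between the arms without E2, 0 members passed. For FOXP3 all 3 TGFBRi values (338, 346 and 325) lay below the lowest vehicle value of 369. The difference of -0.54 (SE 0.25, limma adjusted p = 1.0) did not pass, 2.97% of genes lay lower without overlap, and limma called 0% of genes. There were 330 genes at an unadjusted p under 0.05, and edgeR and DESeq2 called 0 each. With E2, tumor-free TGFBRi against vehicle gave 0% called (845 genes at an unadjusted p under 0.05, edgeR 0, DESeq2 8), with HAVCR2 at 1.11 (adjusted p = 0.793). The E2 rats with TGFBRi and tumors had HAVCR2 at 906 and 873, FOXP3 at 436 and 812, LAG3 at 1126 and 1856, CTLA4 at 1585 and 1565 and CD274 at 2059 and 1710. Both HAVCR2 values lay below those of the tumor-free TGFBRi rats (-0.57, limma adjusted p = 0.704), as did 7.57% of genes. Of the members 0 passed, against 0.0668% of genes there and 0.0223% of genes for tumor-bearing TGFBRi against vehicle. These comparisons share groups with each other.

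**Figure D2:**
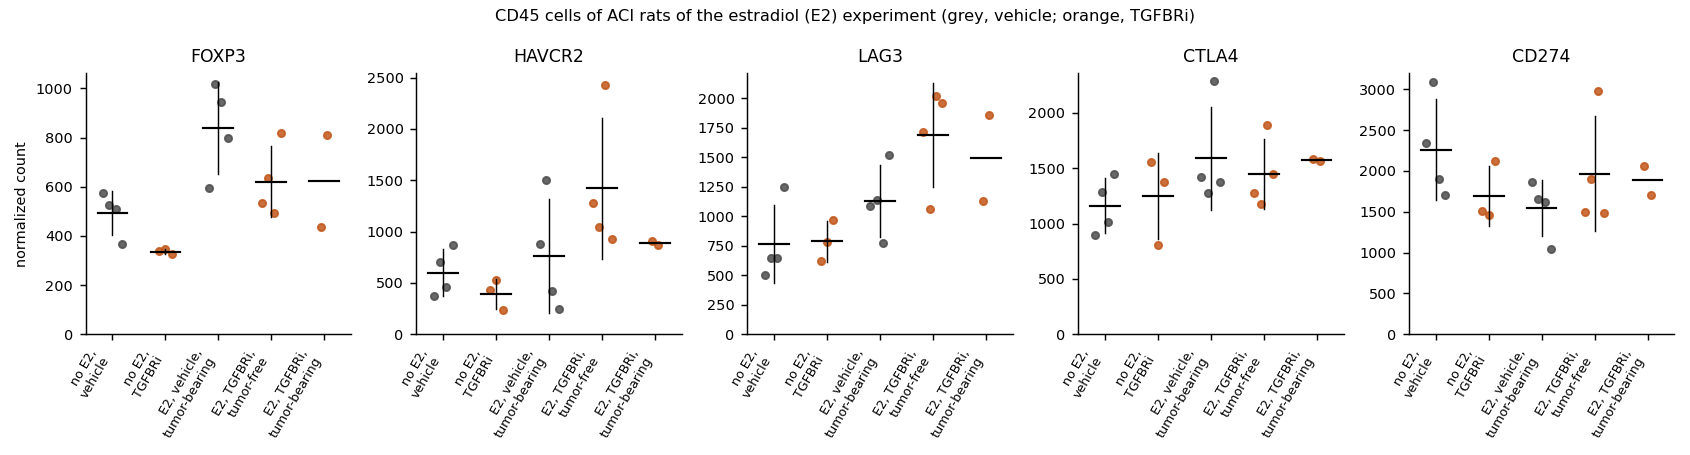
Normalized counts (linear axis from 0) of 5 members in CD45 gland cells of the 5 groups of the E2 experiment, 1 point per rat, grey for vehicle and orange for TGFBRi, with the mean (horizontal line) and, for groups of 3 or 4, the SD (vertical line). HAVCR2, LAG3 and FOXP3 of tumor-free TGFBRi rats with E2 lie above those of TGFBRi rats without E2, and FOXP3 of vehicle rats with E2 lies above that of vehicle rats without.

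In young ACI rats on day 0, CD274, CTLA4, FOXP3 and LAG3 had higher medians after TGFBRi, but all groups overlapped and no member passed. FOXP3 was 459, 19.9 and 6.50 normalized counts in vehicle rats and 660, 377 and 137 in TGFBRi rats (2.97, SE 1.2, limma adjusted p = 0.196). CTLA4 was 1412, 130 and 113 against 2360, 1407 and 552 (2.15, SE 0.90, adjusted p = 0.211). CD274 was 832, 459 and 1785 against 1462, 1793 and 3837 (1.29, SE 0.46, adjusted p = 0.143). Vehicle rat 1 stood within the TGFBRi range for FOXP3 and CTLA4, far above the other 2 vehicle rats. LAG3 was 1418, 307 and 386 against 1435, 785 and 555 (0.63), and HAVCR2 260, 2453 and 2448 against 495, 696 and 1842 (-0.43). Limma called 2.85% of 14761 genes and 0 of 5 members, 3 of which had an unadjusted p under 0.05. Over all genes 2642 did, and edgeR called 192 genes and DESeq2 1042, again with 0 members each.

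Some members passed when 1 rat was left out or a covariate was added. Without vehicle rat 1, CTLA4 rose by 3.33 (limma adjusted p = 0.0253) and FOXP3 by 4.70 (adjusted p = 0.0136), and without vehicle rat 3, CD274 rose by 1.80 (adjusted p = 0.0282). With the CD3 mean as a covariate, CD274 rose by 1.58 (adjusted p = 0.0215), CTLA4 by 1.08 (adjusted p = 0.0159) and FOXP3 by 1.56 (adjusted p = 0.0286), in a fit that called 1716 of 14761 genes against 420 without the covariate. The mean log2 level of the T cell receptor complex ran from 9.22 to 12.3 in vehicle rats and from 10.4 to 11.7 in TGFBRi rats. Of the T cell receptor list 0 of 12 passed (median 0.89) and of the regulatory T cell list 0 of 17 (median 0.67). Markers of other cells differed between these arms: 3 of 5 basal markers were lower after TGFBRi (list level 7.08 to 8.93 in vehicle rats, 2.77 to 3.40 in TGFBRi rats), 3 of 6 fibroblast markers were lower and 4 of 7 neutrophil markers higher. Their part in the members' values was not tested.

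No member passed on the later days. On day 7 FOXP3 was 269, 25.8 and 391 in vehicle rats and 270, 559 and 542 in TGFBRi rats, and CTLA4 1162, 180 and 1009 against 844, 1548 and 1037. Vehicle rat 2 was low for both. On day 14 FOXP3 was 211, 294 and 268 against 448, 291 and 91.1, and CTLA4 1435, 765 and 1147 against 1156, 1041 and 236. TGFBRi rat 3 was the lowest for both. On both days CD274, LAG3 and HAVCR2 overlapped between the arms as well. Limma called 0% of genes on either day, with 631 and 725 genes at an unadjusted p under 0.05, 0 genes by edgeR, and 18 and 17 by DESeq2. The change of the TGFBRi effect from day 0 to day 14 was tested itself and gave 0.19% of genes and no member (CTLA4 2.87, limma adjusted p = 0.278, FOXP3 3.13, adjusted p = 0.388). From day 0 to day 7 it gave 0.0135% and no member (CD274 1.58, adjusted p = 0.408). Without day 0 vehicle rat 1, the day 0 to day 14 change passed for CTLA4 (4.04, adjusted p = 0.0433) and FOXP3 (4.86, adjusted p = 0.0468).

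In young SD rats on day 0 the arms overlapped for all 5 members. FOXP3 was 525, 171, 181 and 211 in vehicle rats and 159, 409, 481 and 104.97 in TGFBRi rats (-0.01, limma adjusted p = 0.995). CTLA4 was 796, 543, 485 and 1136 against 662, 1034, 955 and 290, LAG3 1361, 269, 467 and 1289 against 189, 1098, 1684 and 179. CD274 was 698, 1752, 543 and 772 against 1282, 652, 508 and 1782, and HAVCR2 592, 2314, 512 and 164 against 1538, 368, 371 and 2318. Within each arm, the rat with the lowest LAG3 had the highest HAVCR2. Limma called 0% of genes, 501 had an unadjusted p under 0.05, edgeR called 0 and DESeq2 1.

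In adult ACI rats, FOXP3 was higher in parous than in virgin vehicle rats without overlap, but did not pass. FOXP3 was 77.7, 224, 49 and 107.1 in the 4 virgin and 281 and 372 in the 2 parous vehicle rats (1.71, SE 0.69, limma adjusted p = 1.0), and 5.82% of genes lay higher without overlap. In TGFBRi rats it was 318, 67.6 and 221 in virgins and 361, 308, 258 and 242 in parous rats, with overlap (0.77, adjusted p = 0.894). Over both arms the difference was 1.24 (SE 0.46, adjusted p = 0.999). The T cell receptor list level was 9.91 to 11.7 in virgin and 11.2 to 11.7 in parous vehicle rats. CTLA4 was 540, 1802, 256 and 382 in virgin vehicle rats, 410 and 1367 in parous vehicle rats, 563, 679 and 825 in virgin TGFBRi rats and 1829, 1948, 1767 and 801 in parous TGFBRi rats. LAG3 was 101.4, 814, 1484 and 1374, then 1546 and 907, then 1495, 751 and 817, then 303, 696, 757 and 1582 in the same order.

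CD274 was the steadiest of the 5 in adults, from 1086 to 2428 over all 13 rats, whereas HAVCR2 ran from 214 to 2808. PDCD1 was read 0, 0, 0 and 2 times in virgin vehicle rats, 9 and 1 times in parous vehicle rats, 4, 0 and 0 times in virgin TGFBRi rats and 2, 0, 0 and 1 times in parous TGFBRi rats, which is too few to compare. Limma called 0% of genes for parous against virgin in vehicle rats (209 at an unadjusted p under 0.05, edgeR 0, DESeq2 0), 0% in TGFBRi rats (606, DESeq2 20) and 0% over both arms (302, DESeq2 2). For TGFBRi against vehicle it called 0.022% in virgins (749, edgeR 0, DESeq2 67), 0% in parous rats (141, edgeR 0, DESeq2 0) and 0% for the difference between them (368, DESeq2 6). No member was among them. These comparisons share groups.

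**Figure D3:**
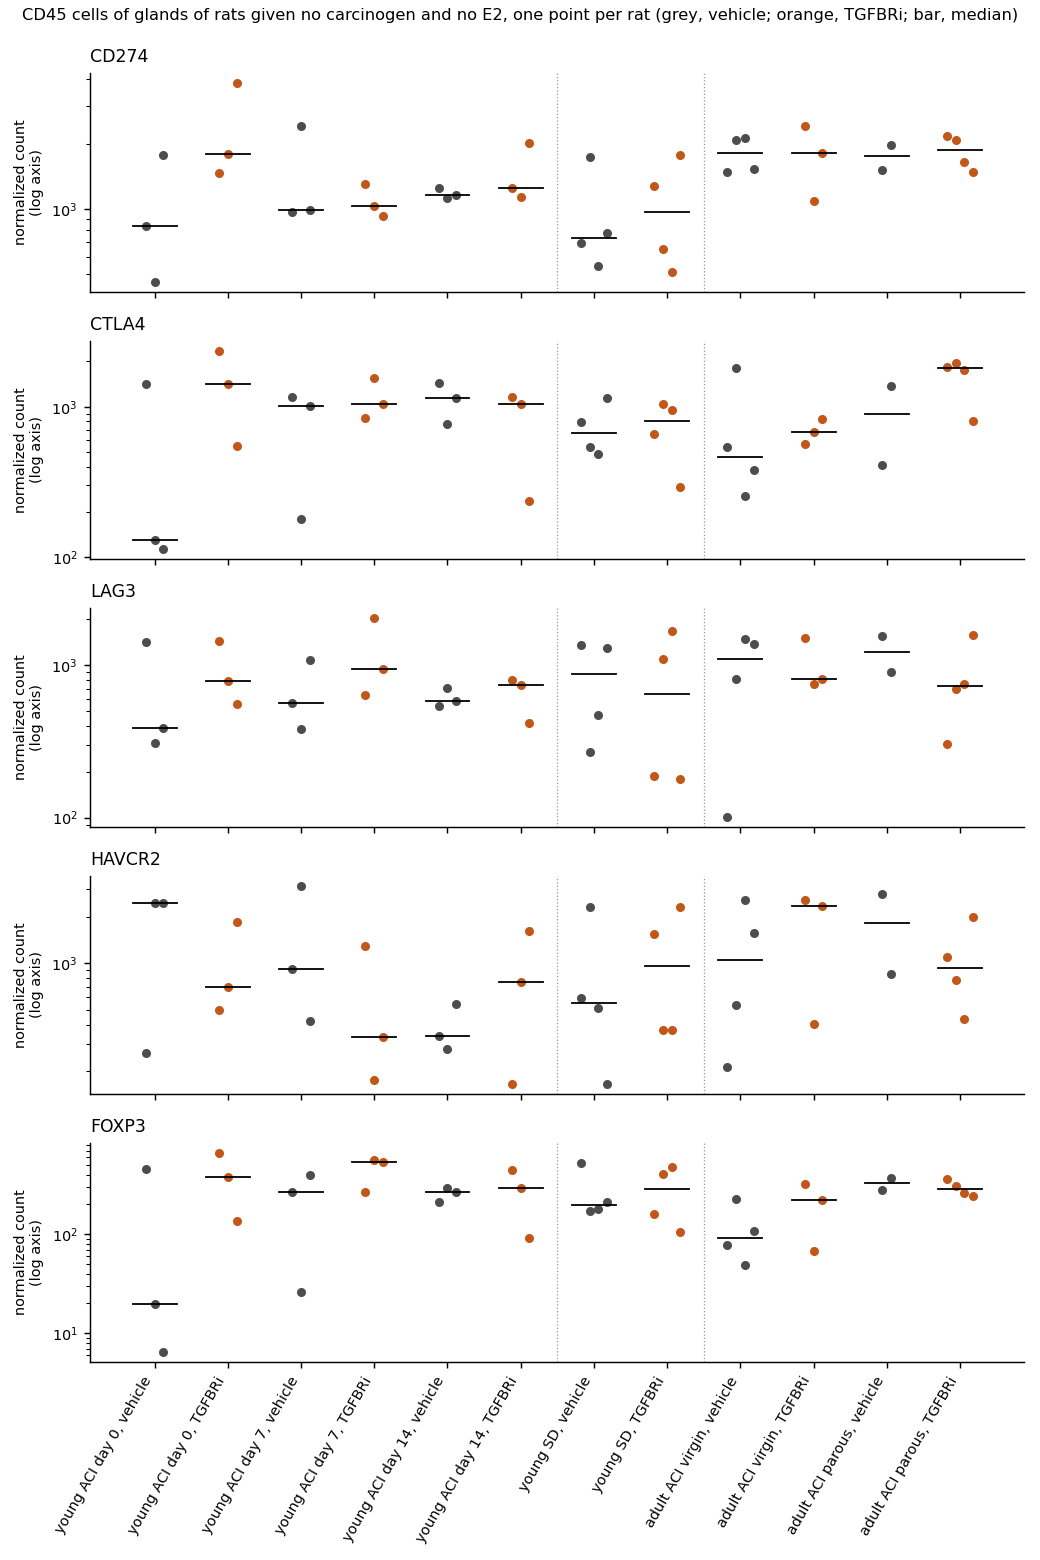
Normalized counts (log axis) of 5 members in CD45 gland cells of young ACI, young SD and adult ACI rats, 1 point per rat, grey for vehicle and orange for TGFBRi, with a line at the group median. The arms overlap in each set of young rats, FOXP3 of 2 vehicle rats on day 0 lies at 19.9 and 6.50, and FOXP3 of parous vehicle rats lies above that of virgin vehicle rats.

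Across 65 rats, with values taken relative to their experiment and over 7799 genes, the members had different closest companions by Pearson r, given as a description since rats share T cell content and gate. The genes most like CTLA4 were TRIB2 (0.88), CD247 (0.87) and ICOS (0.86), and those most like FOXP3 were CD3E (0.84), CTLA4 (0.81) and TRIB2 (0.80). LAG3 went with CD8A (0.82), LIME1 (0.78) and TEX261 (0.78). HAVCR2 went with the myeloid genes PTAFR (0.90), NOD2 (0.90) and NLRP3 (0.90), and CD274 with HNRNPH2 (0.73), RNF13 (0.73) and SH3GLB1 (0.71). With the CD3 mean, r was 0.87 for CTLA4, 0.79 for FOXP3, 0.58 for LAG3, -0.27 for CD274 and -0.62 for HAVCR2.

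The single cells showed which cells of the SD gland carried each member. The 9 libraries held 103524 cells, 7900 to 16424 each, with medians of 2820 to 3885 UMIs per cell, and formed 33 clusters, of which 24 were named by marker genes and 9 stayed unnamed. The unnamed clusters include 2 of 6886 and 4521 cells whose markers came closest to luminal-like cells and which are not counted as luminal-like here. The members and the genes of their lists, 55 in all, were left out of the clustering. In each library 955 to 1878 barcodes also occurred in another library. The share of T-like cells was lowest in vehicle rat 3, at 4.82% of all cells. It was 6.90% and 10.1% in the other vehicle rats and 9.42 to 20.1% in TGFBRi rats. Where leaving out vehicle rat 3 changes a call or moves a called value by over 1.5 times, both values are given. Levels are CPM, the UMIs of a gene per 1000000 UMIs of the class, which compare a member between classes. How well they compare different genes was not tested. For comparison between classes of unequal depth, shares of cells with a UMI are also given after thinning each cell to 1000 UMIs (mean over rats), which left out 12753 cells.

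CD274 was highest in neutrophil-like cells, at 385 CPM (297 to 591 over rats). There 56% of cells had a UMI, or 29.8% after thinning, at a median of 2713 UMIs per cell. Lymphatic endothelial-like (146), endothelial-like (141), NK-like (114), macrophage-like (104.3) and dendritic-like cells (101.3) followed, and their ranges over rats overlapped. B-like (32.5) and CD4 T-like cells (32.1) were lower, and fibroblast-like (15.7), basal-like (7.12) and luminal-like cells (6.95) the lowest.

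HAVCR2 was carried by myeloid cells. An unnamed cluster of 2059 cells with SLPI, CFP, HAVCR2 and LYZ2 among its leading genes, singled out for its HAVCR2 level, stood at 203 CPM (130 to 360), with a UMI in 43.1% of cells or 16.8% after thinning, at a median of 5416 UMIs. Neutrophil-like (59.5), macrophage-like (46.9) and dendritic-like cells (30.1) followed with overlapping ranges. In lymphocytes it was lower, at 6.31 in NK-like, 4.64 in B-like, 2.92 in CD4 T-like and 1.45 in CD8 T-like cells, the last from 15 UMIs.

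LAG3 was highest in NK-like cells at 131 CPM (48.8 to 167), with a UMI in 28.0% of cells or 11.2% after thinning, at a median of 3299 UMIs. CD8 T-like cells had 70.6 (45 to 113; 20.9% of cells, 6.81% after thinning, median 3912) and CD4 T-like cells 42.7 (19.5 to 116). The rats' ranges of these classes overlapped. This order depends on the clustering. With coarser clusters (resolution 0.5), a T-like subcluster of 580 cells, counted as neither CD4 nor CD8 T-like, held LAG3 at 211 CPM. It had CD8A in 66.4% and CD3E in 86.2% of its cells. With finer clusters (resolution 1.2), a like subcluster of 667 cells, with CD8A in 82.2%, held LAG3 at 141 CPM. B-like cells had LAG3 at 0.55, with a UMI in 0.131% of cells or 0.043% after thinning. CTLA4 was 142 in CD4 T-like cells (109 to 201; 27.8% of cells, 12.5% after thinning), 49.2 in CD8 T-like cells (41.2 to 59.3), 39.6 in NK-like cells (24.4 to 60.9) and 0.48 in B-like cells, 0.106% of which had a UMI. The CD4 and CD8 ranges of CTLA4 did not overlap.

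FOXP3 marked CD4 T-like cells, at 207 CPM (117 to 288) with a UMI in 21.4% of cells or 12.3% after thinning. It was 5.21 in CD8 T-like cells (0 to 17.7), 2.46 in NK-like cells and 0.72 in B-like cells, of which 0.161% had a UMI or 0.057% after thinning. The median depth was 2942 UMIs in CD4 T-like and 2286 in B-like cells. A subcluster of 2025 CD4 T-like cells, chosen for its FOXP3, held it at 414 (188 to 521). Its leading genes included TNFRSF4, TNFRSF9, CD200, PRDM1 and CCR8, and it also held CTLA4 at 212, TIGIT at 109 and LAG3 at 81.3.

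TIGIT was 106.2 CPM in CD4 T-like cells (48.3 to 225; 10.8% of cells) and 67.1 in NK-like cells (33.6 to 113; 11.8% of cells), against 3.47 in CD8 T-like and 0.09 in B-like cells. A further subcluster of 182 CD4 T-like cells, chosen for its TIGIT, held it at 1404 with a UMI in 89% of cells, and had IZUMO1R, TOX2 and MAF among its leading genes and CTLA4 at 357. From rat to rat it held 4, 7 and 0 cells in vehicle and 38, 33, 10, 79, 6 and 5 cells in TGFBRi rats, with no test. PDCD1 UMIs were scarce everywhere, with 112 in the named leukocyte classes together. Of these, 68 were in CD4 T-like cells (50 in the FOXP3-rich and 12 in the TIGIT-rich subcluster), 25 in NK-like cells and 1 in CD8 T-like cells. A T-like subcluster of 433 cells that was not split held a further 12. The low CD8 T-like values of TIGIT and PDCD1 depend on the clustering. At resolution 0.5, the T-like subcluster of 580 cells with CD8A in 66.4% of cells held 22 PDCD1 UMIs and TIGIT at 128 CPM.

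**Figure D4:**
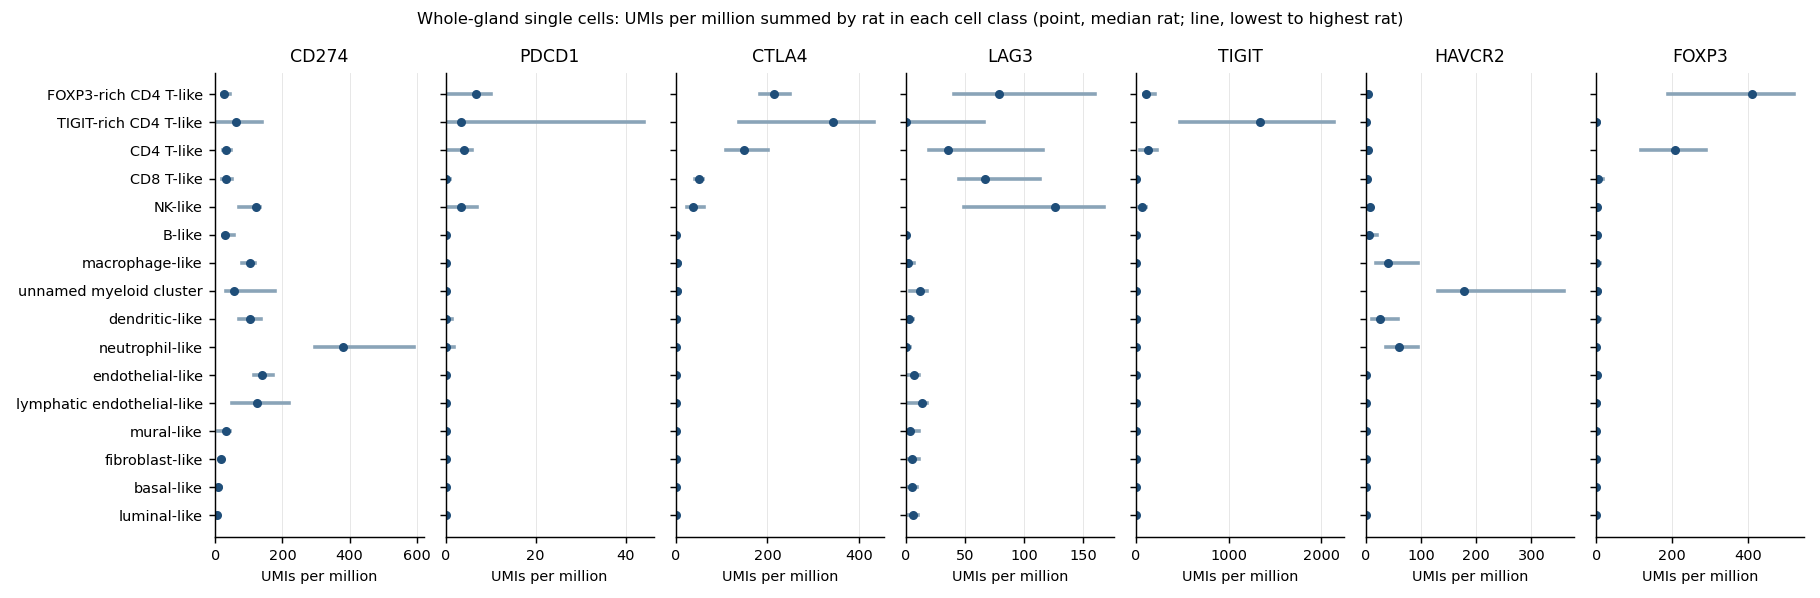
CPM (UMIs per 1000000) of each member in 16 cell classes and subclusters of the whole SD gland, the point marking the median rat and the line running from the lowest to the highest of 9 rats. CD274 peaks in neutrophil-like cells, HAVCR2 in myeloid cells, LAG3 in NK-like and T-like cells, and CTLA4, TIGIT and FOXP3 in CD4 T-like cells. T-like cells that were not split are not shown.

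Between the arms, UMIs were summed per rat and class and compared with edgeR, and a gene is called at an adjusted p of 0.1 or less. LAG3 rose after TGFBRi in NK-like and CD8 T-like cells. In NK-like cells it was 96.7, 107.7 and 48.8 CPM in vehicle rats and 160, 97.4, 163, 149, 167 and 126 in TGFBRi rats, with 1 TGFBRi rat inside the vehicle range (0.73, SE 0.19, edgeR adjusted p = 0.0415). This class had 3.72% of genes called, against 1 of 7 members. In CD8 T-like cells LAG3 was 45, 45.5 and 62.5 against 51.5, 66.5, 113, 77.8, 77.9 and 74.2, also with 1 TGFBRi rat inside the vehicle range (0.74, SE 0.22, adjusted p = 0.0526, 4.96% of genes called, 1 of 6 members). Vehicle values rested on 51, 18 and 9 UMIs. The CD8 call was lost without vehicle rat 1 (adjusted p = 0.492) or 2 (0.230) and by DESeq2 (0.112), and the NK call without vehicle rat 1 (0.110), TGFBRi rat 3 (0.105) or TGFBRi rat 5 (0.109). With coarser or finer clusters (resolution 0.5 and 1.2 in place of 0.8) LAG3 did not pass in NK-like cells (edgeR adjusted p = 0.267 and 0.164), nor with finer clusters in CD8 T-like cells (0.189). CTLA4 in NK-like cells was -0.49 (adjusted p = 0.348) and fell at -0.68 (adjusted p = 0.0980) without vehicle rat 3.

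LAG3 UMIs were also more frequent in TGFBRi rats in classes not known for it. In luminal-like cells LAG3 was 3.23, 1.89 and 3.17 CPM in vehicle and 4.57 to 10.4 in TGFBRi rats, without overlap, where 12.2% of genes lay higher without overlap. In fibroblast-like cells it was 1.81, 0.558 and 2.65 against 4.23 to 10.9, where 19.5% did, and in lymphatic endothelial-like cells 2.87, 0 and 1.85 against 7.84 to 17.6, where 7% did. These levels are small beside those of NK-like cells, and the part of free RNA in any of the LAG3 differences was not tested. In all T-like cells together LAG3 was 31, 36.6 and 34.7 against 37.7 to 94.6 without overlap (0.69, SE 0.27, edgeR adjusted p = 0.196), where 5.63% of genes lay higher without overlap and 7.31% were called, none of them a member. In CD4 T-like cells, with 4.67% called, 0 of 7 members passed: LAG3 was 19.5, 43.5 and 65.3 against 25.7 to 116, CTLA4 117, 172 and 201 against 109 to 200, FOXP3 159, 278 and 151 against 117 to 288, and TIGIT 71.5, 135 and 166 against 48.3 to 225.

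CD274 fell after TGFBRi in B-like cells. It was 49.1, 42.8 and 56.5 CPM in vehicle rats and 33.9, 28.2, 25.6, 23.8, 25.2 and 21.2 in TGFBRi rats, without overlap (-0.96, SE 0.16, edgeR adjusted p = 0.0029). In B-like cells 17% of genes were called and 6.39% lay lower without overlap, against 1 of 5 members. CD274 was also lower without overlap in lymphatic endothelial-like cells (219, 198 and 182 against 50.7 to 136, where 5.7% of genes were) and in neutrophil-like cells (421, 591 and 489 against 297 to 409, where 2.75% were). In mural-like cells it lay the other way, at 10.6, 6.44 and 18.5 against 26.2 to 42.2, where 13.5% of genes lay higher. In macrophage-like cells CD274 was 119, 104.1 and 117 against 78.6 to 110 (-0.52, SE 0.16, adjusted p = 0.108).

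HAVCR2 fell in macrophage-like cells, from 72.4, 94.7 and 30.1 CPM in vehicle rats to 30.5, 40.1, 39.3, 45.7, 36.5 and 18.2 in TGFBRi rats (-1.12, SE 0.31, edgeR adjusted p = 0.0919, 3.89% of genes called, 1 of 6 members). Vehicle rat 3 lay inside the TGFBRi range, and the call was lost without vehicle rat 1 or 2 or without any one TGFBRi rat (adjusted p = 0.110 to 0.348). In dendritic-like cells, with 4.65% called and 0 of 5 members, it was 58.3, 33.4 and 39.2 against 10.6 to 46.6 (-0.85, edgeR adjusted p = 0.237). In the unnamed myeloid cluster it was 299, 360 and 178 against 130 to 212, with overlap and no test. At a clustering resolution of 1.2, where a cluster of 1842 cells led by SLPI, CFP and HAVCR2 was named dendritic-like, HAVCR2 fell in dendritic-like cells, at -1.01 (edgeR adjusted p = 0.00349).

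The named leukocyte classes were also summed, without the unnamed myeloid cluster in which HAVCR2 was highest. In this sum, which mixes changes within classes with changes of their shares, LAG3 rose by 1.12 (edgeR adjusted p = 0.0089) and CTLA4 by 0.42 (adjusted p = 0.0289). HAVCR2 at -1.22 (edgeR adjusted p = 0.0118) and CD274 at -0.82 (adjusted p = 0.0303) fell. Of all genes 17% were called there, against 4 of 7 members. LAG3 was 12.3, 11.2 and 10.3 CPM in vehicle rats and 20.1 to 34.5 in TGFBRi rats, and HAVCR2 15.6, 19.3 and 23.3 against 6.49 to 11.1, both without overlap. CD274 was 70.4, 75.7 and 125 against 48.9 to 57.9, also without overlap. Of all genes 11.4% lay higher and 6.08% lower without overlap. Without vehicle rat 3, CD274 changed from -0.82 to -0.40. FOXP3 did not pass (0.92, edgeR adjusted p = 0.129). It passed by DESeq2 (adjusted p = 0.0432), and by edgeR without vehicle rat 2 (1.37, adjusted p = 0.0537) or TGFBRi rat 1 (1.04, adjusted p = 0.0903). PDCD1 passed without vehicle rat 2 (1.83, edgeR adjusted p = 0.0888). The share of T-like cells with a FOXP3 UMI was 8.61% ± 4.62 (SD, n = 3) in vehicle and 12.9% ± 3.6 (SD, n = 6) in TGFBRi rats, a difference of 4.30 percentage points (exact two-sided permutation test, p = 0.167). Without vehicle rat 3 the difference was 2.20 points (exact two-sided permutation test, p = 0.429). After thinning it was 5.97% against 7.51% (exact two-sided permutation test, p = 0.476).

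Genes of the T cell receptor complex rose in several classes. In CD8 T-like cells 5 of 12 genes of the T cell receptor complex rose (median 0.28), CD6 by 1.15, CD5 by 1.11, CD2 by 0.66 and ZAP70 by 0.43, and of 13 other co-receptors BTLA rose by 2.33, TOX by 0.96 and CD27 by 0.40, against a median of 0.05 over all genes. In NK-like cells 8 of the 12 T cell receptor genes rose (median 0.58), CD6 by 1.96, CD3E by 0.84, CD8A by 0.76 and CD247 by 0.69, against a median of 0.02 over all genes, so that the LAG3 rise there stood beside a rise of T cell genes in the same class, whose part in it was not tested. In CD4 T-like cells 3 of 12 rose, and of the 18 regulatory T cell genes BATF alone rose, by 0.52. In B-like cells PVR fell by 1.39, NECTIN2 fell by 1.29 and LGALS9, a ligand of HAVCR2, rose by 0.70, of 11 ligands and partners.

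**Figure D5:**
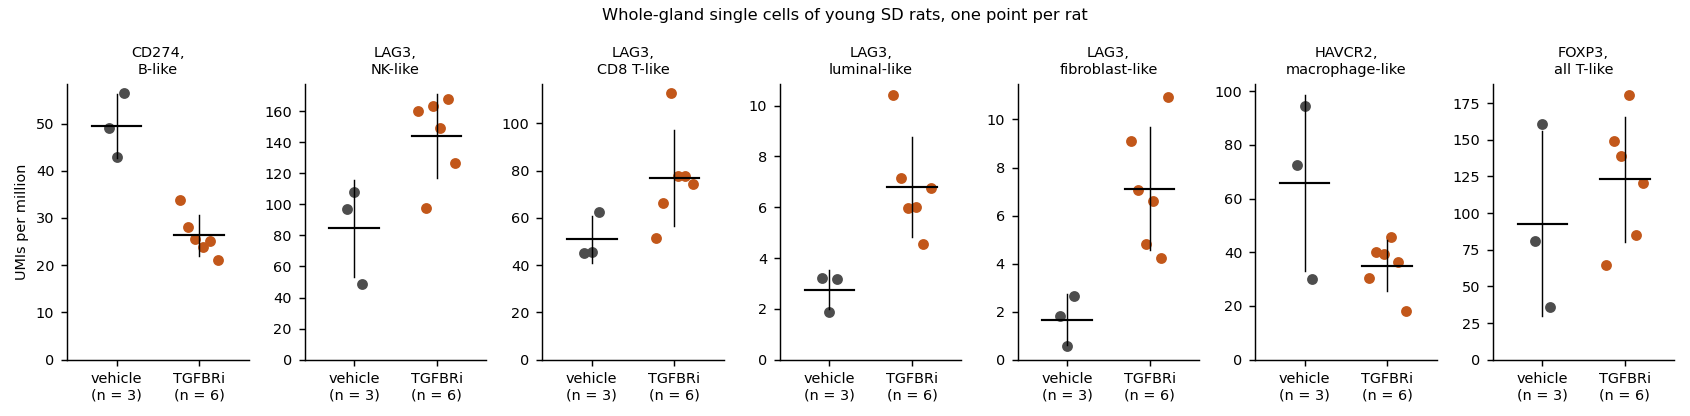
CPM (UMIs per 1000000) of CD274, LAG3, HAVCR2 and FOXP3 in named classes of whole-gland cells, 1 point per rat, with the mean (horizontal line) and SD (vertical line) of 3 vehicle rats (grey) and 6 TGFBRi rats (orange). CD274 in B-like cells and LAG3 in luminal-like and fibroblast-like cells do not overlap between the arms, whereas 1 or more rats overlap in the other panels.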

How the data were processed

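Per the labels and the study's methods, the authors aligned bulk reads with STAR 2.5.1b to rn6, counted them per gene with HTSeq without strand and divided them by DESeq2 1.30.1 size factors, so that the deposited bulk values are normalized counts, a signal per gene and library. Every value was a whole multiple of 1 step per library (100% of 2526550 values, tolerance 0.001), so whole reads were recovered. In 7 libraries the step was close to 1, which leaves it less certain. Rows naming no gene, 30.7 to 42.5% of reads in the CD45 libraries that carry them, were left out. The authors made the deposited whole-gland UMI counts with Cell Ranger 7.0.0 and Seurat 4.1.1 and filtered cells on genes and mitochondrial reads.

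Bulk groups were tested with limma 3.58.1 (trended prior, robust variances) in R 4.3.3 on log2(normalized count + 1), over genes summing to at least 10, at an adjusted p of 0.05. A pseudocount of 1 understates changes of low genes. All groups of 1 data set shared a model, and edgeR 4.0.16 and DESeq2 1.42.0 on recovered reads were alternatives. Tumors and glands, normalized separately by the authors, were rescaled together by medians of ratios, with the rat as a block because both came from the same rats. Parts of 1 rat were averaged. The marker list levels are mean log2 values on the authors' scaling.

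Cells were clustered with scanpy 1.11.5 and leidenalg 0.10.2 (2000 variable genes, 30 components, resolution 0.8). T-like clusters were split into CD4 and CD8 T-like by a difference of marker scores of at least 1. Of 11843 T-like cells, 5414 became CD4 and 2488 CD8 T-like, and the rest were not split. Subclusters under 50 cells, or with more markers of another class than of T cells among their 10 leading genes, were not split. That rule, and the rule that left a myeloid cluster unnamed, were chosen after seeing the data. No doublets were removed, and an alternative left out the 6% of cells with the highest doublet scores. UMI counts summed per rat were tested with edgeR's quasi-likelihood test, over genes with at least 10 counts and rats with at least 10 cells of the class, at an adjusted p of 0.1. The tests were tried on simulated data.

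Named genes were the members, the listed genes with the largest changes among those called (up to 4 per list), and the 3 genes most like each member. Clusters and subclusters named for a member, and the genes named as leading them, were chosen after their values were seen. The members and lists were chosen with earlier results of these data known. The count and median of the interferon γ list for tumor against gland are not reported here.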

Additional observations from a re-analysis of the deposited data

Results flagged for a closer look

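In groups of 4 to 10 rats, the gap of the highest or lowest rat to its nearest neighbour, divided by the group's range, was set against Dixon's 95% critical value. Of 59 groups, 5 passed, and chance alone passes about 1 in 20. CTLA4 of E2 vehicle rat 4 was the highest of its group at 2285 normalized counts, CTLA4 of parous TGFBRi rat 4 the lowest at 801, and FOXP3 of young SD vehicle rat 1 the highest at 525. LAG3 of TGFBRi rat 4 of the single-cell experiment was the highest in CD4 T-like cells, at 116 CPM (UMIs per 1000000), and in all T-like cells, at 94.6. Both LAG3 values come from the same cells in part.

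The sorted epithelial cells, which no comparison above used, held reads of some members in every library, above the limit of 3 reads that a count of 0 allows, in 15 of the 50 combinations of gene, fraction and experiment examined. CD274 had a median of 8.93 RPM (reads per 1000000) in EPCAM cells of NMU tumors. In basal cells its median was 11.5 in adult ACI, 7.47 in young SD, 6.34 in young ACI and 3.95 in NMU glands. In luminal cells it was 7.95 in the E2 experiment, 3.80 in adult ACI, 3.30 in young ACI, 2.69 in NMU glands and 1.52 in young SD. LAG3 had 12.2 RPM in EPCAM tumor cells, 7.33 in basal and 2.59 in luminal cells of young ACI rats. In EPCAM tumor cells CTLA4 had 1.93 and HAVCR2 2.64. Beside them, the leukocyte gene PTPRC (CD45) had medians of 16.5 and the T cell gene CD3E 22 in EPCAM tumor cells. In young ACI rats PTPRC had 2.70 in basal and 1.90 in luminal cells, and CD3E 0.756 and 0.363. The part of leukocytes in these reads was not tested.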

How the results depend on the processing

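Of 35 results, 25 had 0 members past the threshold, 21 of them in every alternative run. Of 545 alternative counts of members, 49 moved, and of 2960 alternative member values 41 lost a call, 37 gained one, 1 reversed and 201 that were called in neither had the other sign. The T cell covariate (CD3 mean) took the calls from 0 to 3 on day 0 and to 0 for E2 in tumor-free TGFBRi rats and for tumor against gland over both arms, in vehicle and in TGFBRi rats, with FOXP3 at -0.34 over both arms. For E2 in tumor-free TGFBRi rats, 3 members passed with a mean of at least 10, by DESeq2 or with only the groups compared, 2 with TMM and 0 by edgeR. By edgeR 1 passed for tumor against gland in vehicle rats. In single cells DESeq2 gave 0 in CD8 T-like, 2 in B-like and 2 in macrophage-like cells. Resolution 0.5 gave 1 in all T-like, 2 in NK-like (CD274 and FOXP3, with LAG3 lost) and 2 in macrophage-like cells. Resolution 1.2 gave 0 in CD8 T-like and 1 in dendritic-like cells, and in NK-like cells CTLA4 in place of LAG3. Leaving out 6% of cells as doublets gave 0 in macrophage-like cells, and a minimum of 1 count gave 1 in dendritic-like cells. Leaving out each replicate in turn gave 0 to 2 on day 0, for day 0 against day 14, for E2 in tumor-free TGFBRi rats and in NK-like cells. For tumor against gland it gave 1 to 3 in vehicle and 2 to 3 in TGFBRi rats. It gave 0 to 1 in CD8 T-like, all T-like, macrophage-like and dendritic-like cells, and 4 to 6 over the named leukocyte classes. The FOXP3 share differed by 2.20 to 6.77 points. The other causes were not tested. Genes called over all alternatives numbered 0 to 4724 for tumor against gland over both arms, 150 to 2182 in vehicle and 0 to 3784 in TGFBRi rats, 185 to 1539 for E2 in tumor-free TGFBRi rats and 29 to 1716 on day 0.

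Animal labels shared between the arms of the adult rats did not pair them (correlation of the deviations of rats with the same label -0.566 to 0.338), and blocking on that label left 0 members called. Tumors and glands are paired by rat (-0.058 to 0.10). Without the block, 3 members passed over both arms, 2 in vehicle rats, 3 in TGFBRi rats and 0 for their difference.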
